A study of Mus musculus with 12 samples.

Results

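Gene expression in wild-type mice was compared between the day of birth (P0) and postnatal day 5 (P5). The 6 wild-type samples were taken by their titles from a series of 12, 3 at P0 and 3 at P5. The other 6 samples, 3 at each age, carried a knockout of NR3B, a subunit of the NMDA class of glutamate receptors, and are used here only to share an estimate of the spread and as values set beside the wild type. Each sample was total RNA hybridised to 1 Affymetrix mouse array, and nothing in the labels says whether the samples of a group came from separate animals, so the p-values reflect how these particular samples scatter, and that scatter may be technical. The labels call the tissue hindbrain and spinal cord, with the word brain placed before them, and a second label says only that it is a brain sample. No strain, sex or drug treatment is given for any of the 4 groups.

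The first days after birth are a time of fast growth in the mouse hindbrain. In the cerebellum, granule cell precursors divide in an outer layer under the influence of Sonic hedgehog, which Purkinje cells secrete, while the Purkinje cells themselves extend dendrites. In brainstem and spinal cord, oligodendrocyte precursors leave the cell cycle and begin to wrap axons in myelin, astrocytes mature, and neurons move from axon growth to synapse formation.

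The deposited signals ranged widely between probe sets, and their median per array lay between 682.6 and 724.2 in the wild-type samples. The P5 samples resembled each other, with pairwise Pearson correlations of 0.979 to 0.981 over the 27022 probe sets at or above the 40th percentile of probe set means. The P0 samples were more scattered: P0 sample 2 correlated at 0.940 and 0.948 with the other P0 samples and at 0.951 to 0.954 with the P5 samples. That sample was also low in Ttr, the transthyretin made by choroid plexus, with a signal of 16501 against 136076 and 147539 in the other P0 samples and 143544 to 156909 at P5. Over the same 27022 probe sets, the median SD of a probe set within the group was 0.279 on the log2 scale at P0 and 0.143 at P5. A 5′ control probe set for 18S ribosomal RNA read 6471, 104400 and 49750 in the P0 samples and 87920 to 89220 at P5. By that control P0 sample 1 stood apart, and a link between it and the other differences was not tested. Xist, expressed from the inactive X chromosome of females, was at 4786, 12012 and 395 in the P0 samples and at 328 to 581 at P5. Eif2s3y, on the Y chromosome, was at 96.3, 109.9 and 6934 in the P0 samples and at 4959 to 5685 at P5. Sex and age therefore cannot be told apart in full, and counts or medians without P0 samples 1 and 2 are given for all genes and for some groups. That comparison sets 1 P0 sample against 3 and assumes that it varies like the other groups. As for the labelled tissue, 23 of 25 measured Hox genes, which mark hindbrain and spinal cord, and 12 of 22 measured forebrain and midbrain markers passed a brightness filter set at the 40th percentile of probe set means. Tbr1, a marker of cortical neurons, did not pass it, with signals of 50.6 to 90.4 at P0 and 211 to 298 at P5.

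Of 45037 probe sets, 2615 differed between P5 and P0 at an adjusted p below 0.05, which is 5.81%. Of these, 1475 were higher at P5 (3.28%) and 1140 were lower (2.53%), and 811 of the higher and 253 of the lower sets differed by 2-fold or more. For the gene groups below, each gene is represented by its brightest probe set. On that count 901 of 18193 genes were called higher at P5 (4.95%) and 619 were called lower (3.4%), and these shares (8.35% in either direction) are the background against which each group is read. Over the 12600 genes that passed the brightness filter they were 6.75% and 4.81%. The gene lists were chosen with earlier results of these data known, so a share above background describes a list and does not test it. By overlap alone, the 3 P5 samples lay above the 3 P0 samples for 15.1% of genes and below them for 13.6%. Without P0 sample 2 the shares were 12.9% higher and 8.64% lower, without P0 samples 1 and 2 they were 6.32% and 3.86%, and with the wild-type samples fitted alone they were 3.16% and 1.34%. Where a called gene had a second bright probe set, that set was also called in the same direction for 216 of 420 higher genes and 126 of 367 lower genes. In tissue RNA, more cells of a type and more RNA per cell cannot be told apart, and this holds for every group described here.

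**Figure D1:**
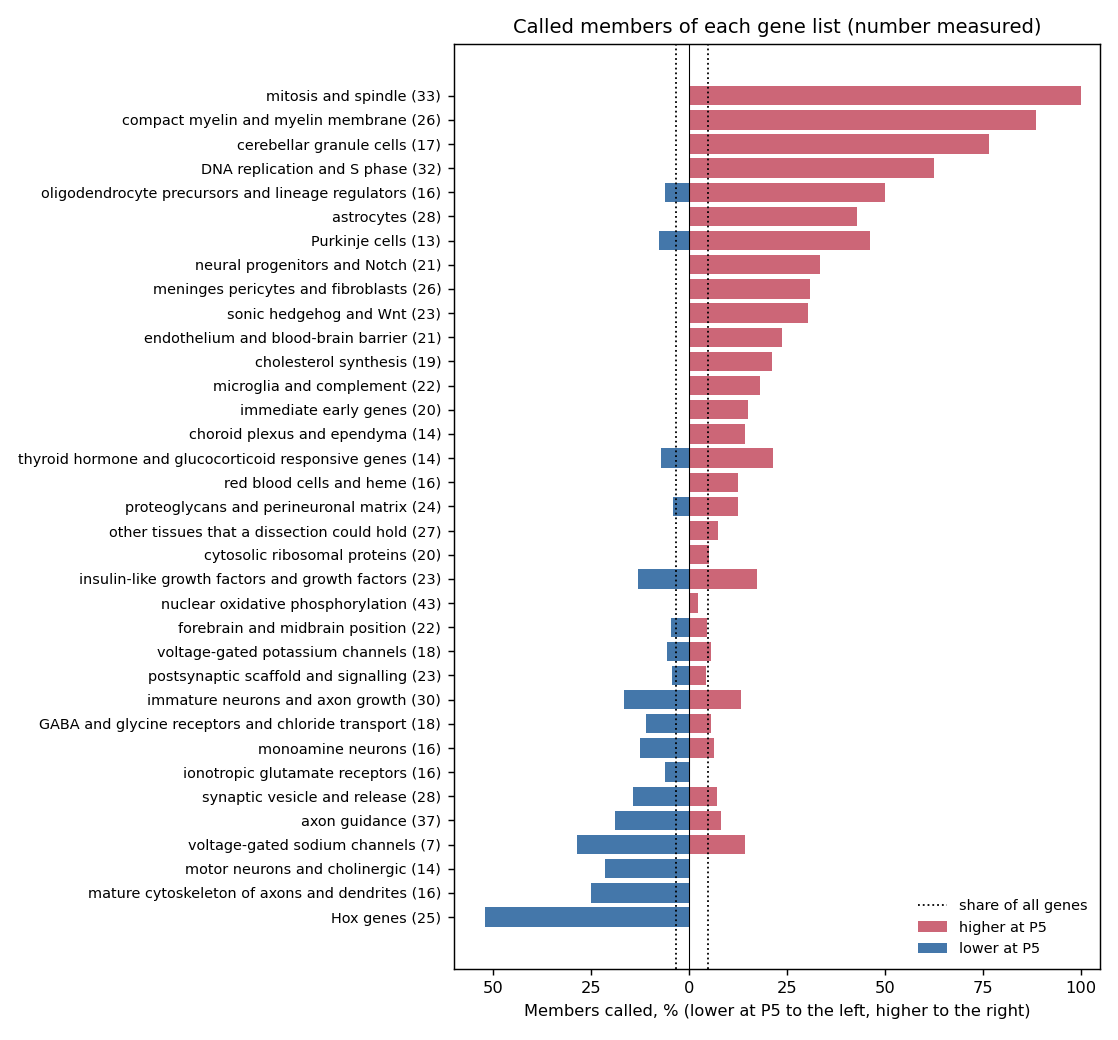
Share of the measured members of each gene list that were called higher (right) or lower (left) at P5 in wild type, with the number measured in parentheses and dotted lines at the share over all genes (4.95% higher, 3.4% lower). Mitosis, myelin, cerebellar granule cells and DNA replication have the largest shares of higher members, and Hox genes the largest share of lower members. The lists were chosen with earlier results of these data known.

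Genes of mitosis rose as a group. All 33 measured genes of mitosis and the spindle were called higher at P5, with log2 differences from 0.74 for Racgap1, which acts in cytokinesis, to 2.52 for Ube2c, a ubiquitin-conjugating enzyme of the anaphase-promoting complex, and a median of 1.71. Mki67, which encodes the proliferation antigen Ki-67, had signals of 3338, 2423 and 3279 at P0 and 11931, 12623 and 14709 at P5, a log2 difference of 2.15 (SE 0.14, adjusted p = 1.50e-06). Every P5 sample lay above every P0 sample. Cdk1, the kinase that drives entry into mitosis, rose from 1230, 2391 and 1521 to 7283, 7074 and 7183 (log2 difference 2.13, SE 0.24, adjusted p = 0.00015). P0 sample 2 was the highest of the P0 samples for Cdk1 and the lowest for Mki67. Top2a, the topoisomerase that untangles chromosomes, rose 3.93-fold, Birc5, the survivin of the chromosomal passenger complex, 5.32-fold, and Cdc20, the activator of the anaphase-promoting complex, 4.21-fold. Kif23, a kinesin of the midbody, lay at the median of the list and rose 3.28-fold. In the knockout samples 33 of 33 members were called higher, and in wild type 31 to 33 were called when any 1 of the 12 samples was left out. Without P0 samples 1 and 2 together the median of the list was 1.75.

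Promoters of mitotic genes are known to carry CCAAT boxes, bound by the factor NF-Y, and cell cycle homology regions, for which the sequence TTTGAA is typical. The 150 bases before the annotated start are shown for 4 defining members that hold both motifs there and for Birc5, which rose as well and holds neither. Within the same 150 bases, Ccnb2 and Bub1b, which also rose, hold CCAAT without TTTGAA. The sequences are from RefSeq (GRCm38.p6), written 5′ to 3′ on the gene's strand, with CCAAT and TTTGAA, or their reverse complements ATTGG and TTCAAA, in capitals:
Mki67 (chr7:135716380-135716529, minus strand): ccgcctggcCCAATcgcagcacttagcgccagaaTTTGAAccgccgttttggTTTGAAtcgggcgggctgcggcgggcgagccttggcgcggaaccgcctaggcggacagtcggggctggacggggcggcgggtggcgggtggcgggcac
Top2a (chr11:99024190-99024339, minus strand): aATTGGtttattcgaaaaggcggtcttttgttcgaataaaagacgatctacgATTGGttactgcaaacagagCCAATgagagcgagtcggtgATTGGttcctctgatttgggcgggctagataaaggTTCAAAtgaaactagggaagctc
Cdk1 (chr10:69352913-69353062, minus strand): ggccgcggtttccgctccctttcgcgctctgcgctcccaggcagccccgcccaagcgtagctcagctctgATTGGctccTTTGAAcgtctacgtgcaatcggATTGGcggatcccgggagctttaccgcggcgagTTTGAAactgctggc
Cdc20 (chr4:118437344-118437493, minus strand): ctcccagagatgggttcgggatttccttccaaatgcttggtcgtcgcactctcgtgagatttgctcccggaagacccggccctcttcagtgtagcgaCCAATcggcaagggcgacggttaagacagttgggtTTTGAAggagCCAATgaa
Birc5 (chr11:117849087-117849236, plus strand): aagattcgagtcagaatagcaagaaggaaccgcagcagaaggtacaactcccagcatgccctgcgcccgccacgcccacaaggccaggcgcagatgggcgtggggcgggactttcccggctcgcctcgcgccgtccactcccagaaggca
In the window from 250 bases before to 50 after the start, searched on both strands, 22 of the 29 mitosis genes with a RefSeq window held CCAAT (75.9%), against 41.1% of all 27025 genes with a window. TTTGAA was held by 22 of the 29 (75.9%) against 20.2% of all genes, and both motifs by 20 (69%) against 8.97%. Among the DNA replication genes, CCAAT was held by 13 of 26 (50%) and TTTGAA by 3 (11.5%). CCAAT was also held by all 16 cholesterol synthesis genes with a window (100%), a list with 4 of 19 measured members called, and by 12 of 21 myelin genes (57.1%). TTTGAA was held by 3 of the 21 myelin genes (14.3%). A match describes these letters and is not a measured binding site.

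DNA replication genes rose in part. Of 32 measured genes of DNA replication and S phase, 20 were called higher and none lower, with a median log2 difference of 0.94. Uhrf1, which recruits the maintenance DNA methyltransferase to newly copied DNA, went from 799, 809 and 577 to 4549, 4638 and 4537 (log2 difference 2.65, SE 0.27, adjusted p = 5.13e-05). Pcna, the sliding clamp of DNA polymerase, rose 2.4-fold, Rrm2, a subunit of ribonucleotide reductase, 3.16-fold, and Cdc6, which loads the replicative helicase, 3.82-fold. Within the helicase itself, Mcm3 rose 3.76-fold, whereas Mcm2 (log2 difference 0.84, adjusted p = 0.0533) and Mcm6 (0.94, adjusted p = 0.054) were above their P0 means without passing the threshold. Fen1, the flap endonuclease, had a brightest probe set at -0.42 that was not called, and another of its sets stood at 1.22. Without P0 sample 2 the count was 27 higher, and without P5 sample 3 it was 13.

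Large rises were found among myelin genes. Of 26 measured genes of compact myelin and the myelin membrane, 23 were called higher at P5 and none lower, with a median log2 difference of 1.65. That median was 1.43 without P0 samples 1 and 2 together. Mag, an adhesion protein of the inner myelin wrap, had signals of 924, 1081 and 911 at P0 and 9067, 7963 and 8929 at P5, an 8.94-fold rise (log2 difference 3.16, SE 0.16, adjusted p = 1.72e-07). Mobp, a small basic protein of compact myelin, rose 30.2-fold from 397, 1224 and 606 to 22720, 18085 and 20343. Mog, found on the outer surface of the sheath and among the last myelin proteins to appear, was at 225, 160.3 and 93.6 at P0 and at 3796, 2671 and 3062 at P5 (log2 difference 4.23, SE 0.52, adjusted p = 0.000278). The P0 signals of Mog lay low on the array, which makes its fold less certain than that of Mag, as its larger SE shows. None of these genes overlapped between the ages.

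Lipid and membrane genes of the sheath moved with the structural ones. Ugt8a, the enzyme that makes the myelin lipid galactocerebroside, rose 7.35-fold from 2562, 2873 and 2927 to 21582, 19038 and 19799 (adjusted p = 1.17e-07). Cnp, an enzyme of the cytoplasmic channels of myelin, was already bright at P0, at 19997 to 23723, and rose 2.92-fold. Cldn11, the claudin of the tight junctions in myelin, rose 5.29-fold, and Mal, a proteolipid of myelin membranes, rose 5.68-fold, with 2490 in P0 sample 3 against 715 and 869.7 in the others. Mbp, which encodes myelin basic protein, was measured by 8 probe sets that differed in size and direction: the brightest rose 4.88-fold, from 18535, 36081 and 26283 to 131670, 126768 and 131244, another rose 21.7-fold, and the dimmer set that did not rise stood at -0.42 on the log2 scale and was not called. The members not called were Qdpr (0.27), Gjc3 (0.51) and Opalin (1.06, adjusted p = 0.144), the last a protein of mature oligodendrocytes with low signals in all samples, at 166 to 625. The summed signal of the 26 genes was 116818, 165195 and 143396 at P0 and 414451 to 448457 at P5.

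**Figure D2:**
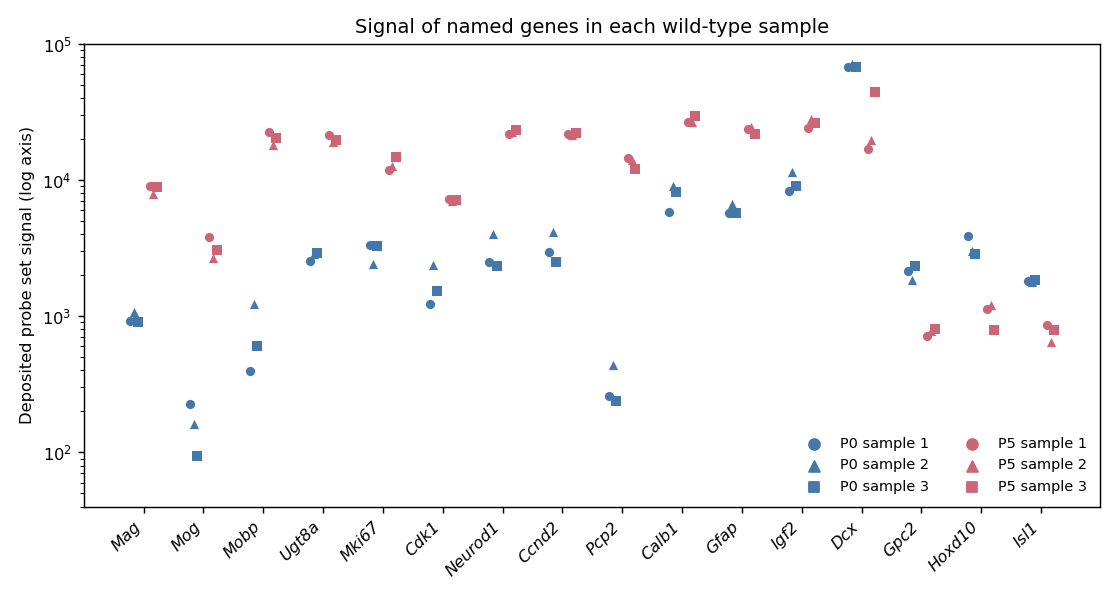
Deposited signal of 16 named genes in each of the 6 wild-type samples on a log axis, P0 in blue and P5 in red, with a marker shape for each sample number. Mag, Mog, Mobp, Ugt8a and Pcp2 stand far above their P0 signals in all 3 P5 samples, while Dcx, Gpc2, Hoxd10 and Isl1 stand below, Dcx with 1 P5 sample at 44374 against 16874 and 19703.

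Precursor genes of the lineage did not all follow. Of 16 measured genes of oligodendrocyte precursors and lineage regulators, 8 were called higher and 1 lower, with a median of 0.70. Pdgfra, the growth factor receptor of the precursors, had signals of 18534, 13010 and 13625 at P0 and 17079, 17118 and 17827 at P5 (log2 difference 0.21, adjusted p = 0.469). Cspg4, the NG2 proteoglycan of the same cells, stood at 0.04 (adjusted p = 0.946). The genes that rose included Gpr17, a receptor of cells about to differentiate (2.49-fold, adjusted p = 0.000113), Myrf, the transcription factor that switches on myelin genes (2.42-fold), and Cdkn1b, the cell cycle inhibitor p27 (2.74-fold). Sox10 rose 2.09-fold, Nkx2-2 1.89-fold, Olig1 1.67-fold and Olig2 1.54-fold, the last with an adjusted p of 0.0426 and a call in 11 of 23 alternative settings. The lower gene was Id4, an inhibitor of helix-loop-helix factors, at -0.67 (adjusted p = 0.0481), a gene chosen after its value was seen and not called without P0 sample 1, P0 sample 3 or any 1 of the P5 samples. The higher count fell to 4 when P0 sample 1, P5 sample 1 or P5 sample 2 was left out, and to 5 without P0 sample 3 or P5 sample 3.

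Cerebellar granule cell genes were higher at P5. Of 17 measured, 13 were called higher and none lower, with a median of 1.17. Neurod1, a transcription factor of granule neurons as they leave the cell cycle, went from 2486, 4008 and 2355 to 21883, 22595 and 23477, an 8.09-fold rise (log2 difference 3.02, SE 0.19, adjusted p = 1.14e-06), and its other probe set gave 3.03. The P5 values lay within a narrow range and far above all P0 values. Atoh1, the factor that defines granule cell precursors, rose 4.46-fold from 479, 411 and 379.5 to 1899, 1899 and 2044. Pax6 rose 4.18-fold, Zic5 4.49-fold, Barhl1 2.93-fold, Nfib 2.24-fold and Zic1 1.87-fold, all transcription factors of these cells. The other named members of the list gave smaller folds or no call. Cntn2, the adhesion protein TAG-1 of newly formed granule neurons, rose 1.55-fold, and Cbln1, the synaptic organiser that granule cells release, rose 1.38-fold with an adjusted p of 0.0465 and a call in 9 of 23 alternative settings. Gabra6, the receptor subunit of mature granule cells, was dim at 42.9 to 293 at P0 and 535 to 646 at P5 and did not pass (adjusted p = 0.056). Reln, which granule cells secrete, had 44196, 28052 and 48238 at P0 and 37816, 39867 and 40190 at P5 and was not called. The count was 8 without P5 sample 2.

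Genes of Sonic hedgehog and Wnt signalling were mixed. Of 23 measured, 7 were called higher and none lower, with a median of 0.41. Ccnd2, the cyclin that granule cell precursors use, rose 7.08-fold from 2989, 4184 and 2497 to 21836, 21295 and 22318 (log2 difference 2.82, SE 0.19, adjusted p = 1.56e-06), and its 6 other probe sets gave 1.65 to 2.49. Ccnd1 rose 3.04-fold, Gli2, a transcription factor of the pathway, 3.07-fold, and Mycn, which relays the signal to growth, 1.92-fold. The direct target genes that report the pathway's activity did not pass: Gli1 was at 283 to 333 at P0 and 484 to 666 at P5 (log2 difference 0.83, adjusted p = 0.122), and the receptor Ptch1 stood at -0.05 (adjusted p = 0.934), with P0 sample 1 at 21576 above all P5 samples.

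Among 21 genes of neural progenitors and Notch signalling, 7 were called higher and none lower, with a median of 0.25. Insm1, a zinc finger factor of dividing intermediate progenitors, rose 7.05-fold by its brightest set, from 1007, 1018 and 431 to 5082, 4983 and 6346, and 8.99-fold by its other set. Eomes, a factor of intermediate progenitors and of unipolar brush cells in the cerebellum, rose 2.6-fold, and Neurog2, a dim proneural factor, 2.42-fold. Id1, Id3 and Tead2 also rose. The general stem cell markers were not called: Sox2 stood at 0.25, Vim at 0.44 (adjusted p = 0.0766) and Nes at -0.28, the last with 197 in P5 sample 3 against 1111 and 1220 in the others. Leaving out P5 sample 2 left 3 called, and leaving out P5 sample 1 or 3 left 4.

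A Purkinje cell gene gave the second largest of the ranked rises. Pcp2, a protein made in the cerebellum by Purkinje cells and in the retina by bipolar cells, was at 259, 442 and 240.2 at P0 and at 14449, 14105 and 12135 at P5, a 43-fold rise (log2 difference 5.43, SE 0.46, adjusted p = 1.51e-05). It was near the lower end of the array's range in all P0 samples and bright in all P5 samples, and another of its probe sets gave 3.57. Calb1, the calcium buffer calbindin, rose 3.75-fold, from 5796, 9098 and 8140 to 26867, 26564 and 29610, and Car8, which binds the inositol trisphosphate receptor, rose 4.3-fold. Pvalb, the buffer parvalbumin, rose 2.84-fold and En2, a hindbrain homeobox gene, 2.06-fold. Of the 13 genes on the list 6 were called higher, among them Cbln1, which the granule cell list also holds and counts. The 1 called lower was Gad1, the enzyme that makes GABA in this and other inhibitory cells. It fell by 0.56 on the log2 scale (adjusted p = 0.0392). That call was lost without P0 sample 1, P0 sample 3 or any 1 of the P5 samples. Pcp4, a regulator of calmodulin, had 30830 in P0 sample 2 against 11404 and 15340 in the other P0 samples and was not called (adjusted p = 0.0651). The median of the list was 0.99, and it was 0.63 without P0 samples 1 and 2 together.

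**Figure D3:**
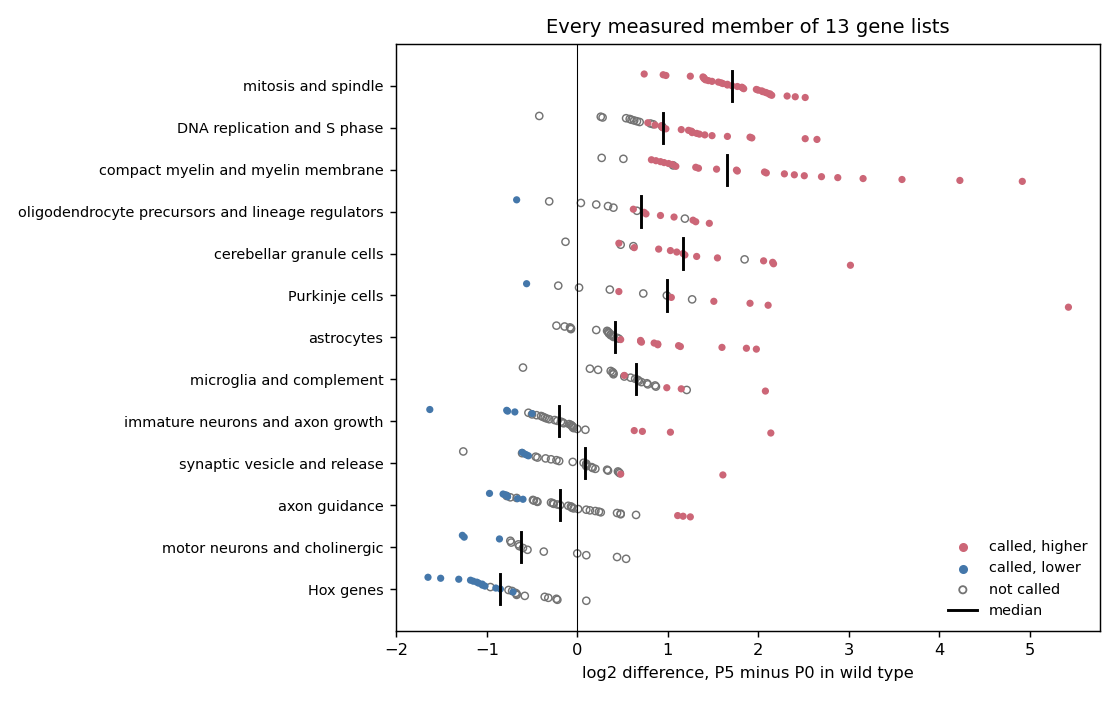
Log2 difference (P5 minus P0, wild type) of every measured member of 13 gene lists, filled where called and open where not, with a bar at each list's median. All mitosis members are filled and lie to the right of 0, the median of the oligodendrocyte precursor list (0.70) lies between 0 and that of the myelin list (1.65), and most Hox genes lie left of 0.

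Astrocyte genes were higher at P5 in 12 of 28 cases and lower in none, with a median of 0.42. Gfap, the intermediate filament of astrocytes, rose 3.94-fold from 5765, 6640 and 5735 to 23658, 24423 and 21643 (log2 difference 1.98, SE 0.15, adjusted p = 6.28e-06). S100b, a calcium-binding protein of astrocytes and oligodendrocyte lineage cells, rose 3.66-fold, although P0 sample 2 (3826) stood well above P0 sample 1 (1297). Aqp4, the water channel of astrocyte end-feet, rose 1.85-fold from 26905, 23575 and 25259 to 49848, 47120 and 49471, and Agt, the angiotensin precursor, 2.18-fold. The glutamate transporter Slc1a3 rose 1.4-fold. Aldoc, at -0.07, and Gja1, the main gap junction protein of astrocytes, at 0.21, were not called. With a constant prior variance in the test the count was 7.

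Genes of microglia and vessels were higher at P5 wherever they were called. Of 22 genes of microglia and complement, 4 were called higher, among them the growth factor receptor Csf1r (1.44-fold, adjusted p = 0.0262), the purine receptor P2ry12 (1.99-fold) and the lysozyme Lyz2 (2.22-fold). The remaining member, Trem2, was dim, at 73.7 to 122 at P0 and 305 to 575 at P5. The complement genes C1qa, C1qb and C1qc were each highest among the P0 samples in sample 2 and did not pass, with adjusted p between 0.0571 and 0.0689. Without P0 sample 2 the count was 12, and without P5 sample 2 or P5 sample 3 it was 2. Among 21 genes of endothelium and the blood-brain barrier, 5 were called higher: Cldn5, the claudin of the barrier, rose 1.83-fold from 6371, 5933 and 6613 to 11428, 11839 and 10616 (adjusted p = 0.000319), and Car4, Eng, Esam and the lipid transporter Mfsd2a rose 2.16-fold, 1.57-fold, 1.56-fold and 1.5-fold. Only Cldn5 kept the call in all 23 alternative settings, and the count was 8 without P0 sample 2 and 2 without any 1 of the other 5 wild-type samples.

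Of 26 genes of meninges, pericytes and fibroblasts, 8 were called higher and none lower, and 5 had a negative difference. In the knockout samples 1 of the 26 was called higher. Igf2, a growth factor made in the brain mainly by meninges and choroid plexus, rose 2.81-fold, from 8355, 11377 and 8998 to 24027, 27943 and 26379 (log2 difference 1.49, SE 0.16, adjusted p = 7.44e-05). Ptgds, the prostaglandin D synthase of meninges, rose 2.3-fold, and the matrix proteins Dcn and Ogn rose 2.39-fold and 2.4-fold. Both matrix genes were highest at P0 in sample 3, at 3111 and 1970, and their calls were lost when P0 samples 1 and 2 were left out together (adjusted p = 0.0881 and 0.143). The summed signal of the list was 167750, 179343 and 192435 at P0 and 277222 to 324521 at P5. The part of meningeal RNA in the rise of Igf2 and Ptgds was not tested. The choroid plexus list, whose sum was 25125 in P0 sample 2 against 147691 and 161055 in the other P0 samples, had 2 of 14 members called: Dynlrb2, a dynein light chain of cilia (2.41-fold), and Ccdc153, a dim gene that overlapped between the ages in the deposited signals, with 267 in P0 sample 2 and 261 in P5 sample 3. Neither was called without P0 sample 1 or any 1 of the P5 samples, and 5 of the list were called without P0 sample 2. No member of the choroid plexus list was called in the knockout samples. Of 16 genes of red blood cells and heme, 2 were called higher and none lower, beside 4.95% and 3.4% of all genes. Alas2, the enzyme that starts heme production in erythroid cells, rose 3.68-fold and Slc4a1, the anion exchanger of their membrane, 6.11-fold. Of the 16, 6 had a negative difference and 7 passed the brightness filter. The globin genes Hba-a1, Hbb-y, Hbb-bh1 and Hba-x did not pass it. In the list of tissues that a dissection could carry over, Col9a1, a collagen of cartilage, and Sparc, a matrix protein that glia and vessels also make, were called higher, and 11 of its 27 genes passed the brightness filter.

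Neuronal genes of axon growth changed in both directions. Of 30 genes of immature neurons and axon growth, 4 were called higher and 5 lower, with a median of -0.20. Dcx, the microtubule protein of migrating neurons, was at 67824, 71799 and 67704 at P0 and at 16874, 19703 and 44374 at P5 by its brightest set (log2 difference -1.63, SE 0.35, adjusted p = 0.0139). The P0 samples were alike and P5 sample 3 lay between the ages, and the other 3 sets gave -2.02, -0.94 and -0.86, the last not called. L1cam, an adhesion molecule of growing axons, fell by 0.78, from 34905, 29092 and 30785 to 20264, 18676 and 18704, and Robo1, the receptor for Slit, fell by 0.77. Dpysl3, a collapsin response mediator, fell by 0.69, and Dpysl5, which was chosen after its value was seen, by 0.50. Igfbpl1 rose 4.42-fold, the GTPase Rnd2 2.04-fold, and the axon repellent Draxin 1.55-fold. Dcc, the netrin receptor and also chosen after its value was seen, rose 1.65-fold by its brightest set while its other sets stood near 0. The bright general markers were not called: Tubb3 at -0.40 (adjusted p = 0.11), Gap43 at -0.31 and Stmn1 at -0.09. The higher count was 2 without P0 sample 3, P5 sample 2 or P5 sample 3. Leaving out P0 sample 2 raised the lower count to 10, while leaving out any 1 of the other wild-type samples brought it to 2 or 3.

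Cytoskeletal genes were lower where they were called, and few synaptic genes were called in either direction. The shares over all genes were 4.95% higher and 3.4% lower. Of 16 genes of the mature cytoskeleton, 4 were called lower and none higher. Prph, the peripherin of motor and sensory neurons, fell by 1.27, from 4924, 4691 and 8080 to 2471, 2344 and 2320 (adjusted p = 0.00248). Map6, which stabilises microtubules, fell by 1.13, Ina, the alpha-internexin of young axons, by 0.71 and Map2, of dendrites, by 0.59. Of 28 genes of synaptic vesicles and release, 2 were called higher and 4 lower, Gad1 among the lower. Slc17a6, the vesicular glutamate transporter most used in brainstem and spinal cord, fell by 0.61, from 50559, 42861 and 47929 to 32235, 33914 and 35066, the synaptotagmin Syt4 by 0.58 and Rab3c by 0.54. Slc17a7, the transporter of mature granule cells, was dim but rose 3.06-fold, from 217, 126 and 159 to 567, 625 and 448, and Cplx2, a complexin, rose 1.39-fold. With the wild-type samples fitted alone 1 of the vesicle genes was called higher and none lower, and leaving out any 1 wild-type sample other than P0 sample 2 left at most 1 in each direction. Without P5 sample 1, 2 of the 4 cytoskeletal calls were left. Of 23 postsynaptic genes, Nrgn, the calmodulin-binding neurogranin, rose 2.39-fold and Nlgn3, a neuroligin, fell by 0.62, and neither call held when any 1 of the P5 samples was left out.

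Single members of the receptor and channel lists were called, beside 4.95% of all genes called higher and 3.4% lower. Counts this small are not read as a result about the lists. Of 16 ionotropic glutamate receptor genes, only Grik1, a kainate receptor subunit, was called: it fell 2-fold, from 4378, 4735 and 5511 to 2506, 2188 and 2637 (SE 0.14, adjusted p = 0.000832). Among the NMDA receptor subunits, Grin3b, the gene for NR3B, was dim, at 198 to 353 at P0 and 155 to 273 at P5, and Grin2b stood at -0.20. Grin3a, the close relative of NR3B, was at 3795, 6732 and 5923 at P0 and 5038, 5156 and 4923 at P5 by its brightest set (-0.07, not called), and at -0.65 and -0.79 by its other sets, which were called. Of 18 genes of inhibitory receptors and chloride transport, Glra2, the fetal subunit of the glycine receptor, fell by 0.88, from 16169, 12067 and 12476 to 7444, 7158 and 7568, and Gabra3 by 0.53. The chloride importer Slc12a2 rose 1.45-fold, and the exporter Slc12a5 stood at -0.30 (adjusted p = 0.271). Of 7 sodium channel genes, the embryonic channel Scn3a fell by 0.71 and the auxiliary subunit Scn3b by 0.89, while Scn2b, another auxiliary subunit, rose 1.83-fold from 3046, 3416 and 3174 to 5819, 5589 and 6079. The other probe sets of Scn2b gave -0.83 and -0.08. Of 18 potassium channel genes, Kcna1, a channel next to the node of Ranvier, rose 1.91-fold and Kcnd2 fell by 0.54. The calls of Slc12a2 and Kcnd2 were lost with the wild-type samples fitted alone, under median centring, and without P0 sample 3 or any 1 of the P5 samples, that of Kcnd2 also without P0 sample 1. Of the lower calls among inhibitory receptors, 1 was left without P0 sample 1, P0 sample 3 or any 1 of the P5 samples.

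Genes of guidance and of the matrix were also called in both directions, beside 4.95% higher and 3.4% lower over all genes. Of 37 axon guidance genes, 3 were called higher and 7 lower. Sema3c, a secreted semaphorin, fell by 0.97, from 9931, 11323 and 10678 to 4922, 5157 and 6179 (adjusted p = 0.000479), and Ntn1, the netrin of the floor plate, fell by 0.80. Unc5c, the repulsive netrin receptor, which granule cells express, rose 2.16-fold, from 3297, 3762 and 2655 to 6598, 6365 and 7671. Plxnb3, a semaphorin receptor of oligodendrocytes, rose 2.39-fold, and Sema3d, chosen after its value was seen, rose 2.25-fold. The lower count was 3 or 4 without P0 sample 1 or without any 1 of the P5 samples. Among 24 proteoglycan and matrix genes, Gpc2, a glypican of growing axons, was at 2157, 1851 and 2350 at P0 and at 714, 780.5 and 806 at P5 (log2 difference -1.46, SE 0.16, adjusted p = 0.000121). Vcan rose 1.7-fold, the link protein Hapln1 2.07-fold and the galectin Lgals3 3.36-fold. With P5 sample 3 left out, 1 of these 3 calls was kept.

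Hox genes, which set position along the hindbrain and spinal cord, were the group with the largest share of lower members. Of 25 measured, 13 were called lower at P5 and none higher, with a median of -0.85. Hoxd10, a gene of the lumbar cord, fell by 1.65, from 3913, 3015 and 2868 to 1133, 1218 and 789 (SE 0.20, adjusted p = 0.000264). Hoxb5, of the caudal hindbrain and cervical cord, fell by 1.11, from 7463, 8753 and 6191 to 3370, 3432 and 3412. Hoxd9, Hoxd3, Hoxb9 and Hoxb3 fell by 1.51, 1.31, 1.18 and 1.05. Other members with bright signals were not called, among them Hoxc10 at -0.68, Hoxd8 at -0.36 and Hoxc8 at -0.23, the last with 7719 in P0 sample 2 against 4278 and 3124 in the other P0 samples. The P5 samples were alike and the P0 samples were not: the mean deviation of the list from its mean over the 6 samples was 0.47, 0.81 and 0.03 in the P0 samples and -0.46 to -0.42 at P5. The sum of the list was 80451, 101692 and 62686 at P0 and 44354 to 45159 at P5. When P0 samples 1 and 2 were left out, 3 of the 25 were called, and the counts without P5 sample 1 and without P5 sample 2 were 6 and 7. In the knockout samples 15 of the 25 were called lower and none higher.

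**Figure D4:**
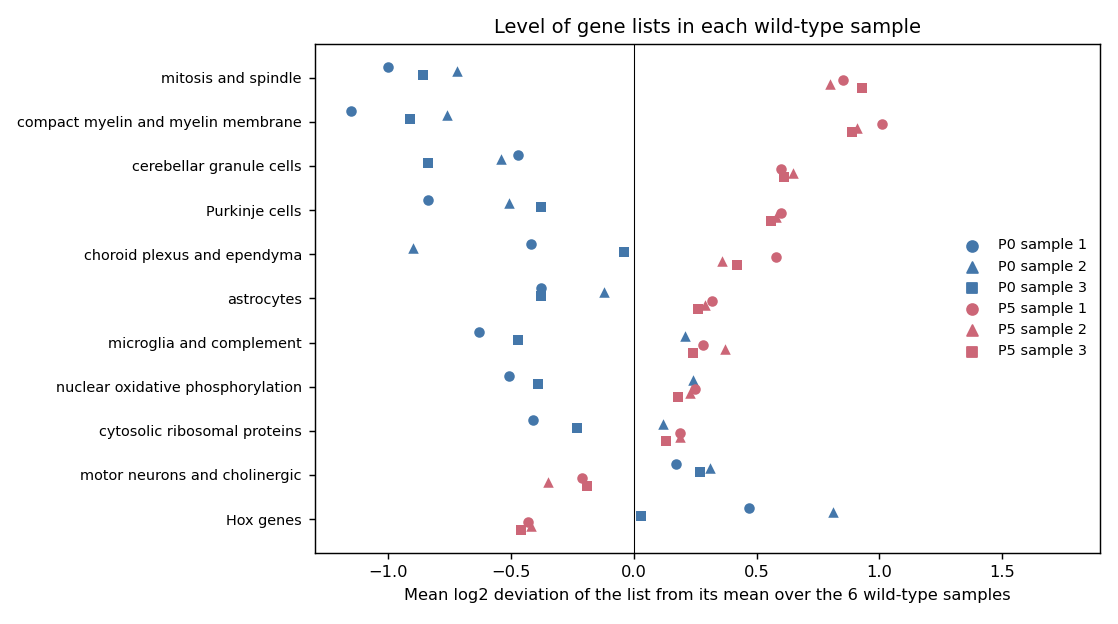
Mean log2 deviation of 11 gene lists from their mean over the 6 wild-type samples, P0 in blue and P5 in red, with a marker shape for each sample number. Every list except oxidative phosphorylation separates the ages in every sample. The gap is narrow for microglia (0.21 in P0 sample 2, 0.24 to 0.37 at P5) and for ribosomal proteins (0.12 and 0.13 to 0.19). P0 sample 2 lies with the P5 samples for oxidative phosphorylation and with none for choroid plexus, and the Hox list is spread from 0.03 to 0.81 over the P0 samples.

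Called motor neuron genes were lower at P5, and the few monoamine calls went both ways. Among all genes, 4.95% were called higher and 3.4% lower. Of 14 motor neuron and cholinergic genes, 3 were called lower and none higher: Prph, described above, Isl1 and Ret. Isl1, a homeobox factor of motor and sensory neurons, fell by 1.25, from 1811, 1795 and 1837 to 868, 646 and 790.4 (SE 0.24, adjusted p = 0.00682). Ret, the receptor for GDNF family ligands, fell by 0.86. Chat, the enzyme that makes acetylcholine, was dim and not called, with 167 to 457 at P0 and 395 to 475 at P5. Of 16 monoamine genes, the dopamine transporter Slc6a3 rose 3.68-fold, from 347, 333 and 856 to 1627, 1795 and 1847, the noradrenaline transporter Slc6a2 fell by 0.81, and the serotonin receptor Htr1a by 0.62. Neither fall was called when any 1 of the P5 samples was left out. As for the rise, the highest P0 signal of Slc6a3 (856) was in sample 3, the P0 sample kept when samples 1 and 2 are left out. Of the 22 forebrain and midbrain genes, Bcl11b fell by 0.96, from 5494, 4793 and 5550 to 2521, 2541 and 3100, and Otx1, which was dim throughout, was called higher, but not without P0 sample 1, P5 sample 2 or P5 sample 3.

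The calls among housekeeping genes depended on P0 sample 2, but so did those over all genes. Of all genes, 4.95% were called higher, and 12.9% were without that sample. Single calls in these lists are not read as a result about them. Of 43 nuclear genes of oxidative phosphorylation, 1 was called higher and none lower, with a median of 0.48, although their mean deviation lay below 0 in P0 samples 1 and 3 and above 0 in P0 sample 2. Without P0 sample 2, 31 of the 43 were called higher. Without P0 samples 1 and 2, 12 were called. The called member was Cox7a1, the muscle and heart form of a cytochrome oxidase subunit, at 314, 358 and 177 at P0 and 625, 559 and 646 at P5. Of 20 cytosolic ribosomal protein genes, 1 was called higher, Rps27l, a p53-responsive relative of a ribosomal protein, and 10 were called without P0 sample 2. Of 19 genes of cholesterol synthesis, 4 were called higher, Ebp (2.2-fold), Tm7sf2 (1.7-fold), Dhcr7 (1.58-fold) and Msmo1 (1.54-fold), all of the later steps that turn lanosterol into cholesterol. The early enzyme Hmgcs1 was at 89054 to 99242 at P0 and 92946 to 99579 at P5 and was not called. None of the 4 was called when P0 sample 1, P0 sample 3 or any 1 of the P5 samples was left out, and 9 of the list were called without P0 sample 2. No member of the cholesterol list was called in the knockout samples.

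Of 23 insulin-like and other growth factor genes, 4 were called higher and 3 lower. Hmga2, a chromatin protein of fetal growth, fell by 1.04, from 2194, 1768 and 2044 to 975, 1307 and 706, and by 1.80 on another probe set. Dlk1, an imprinted growth regulator, fell by 0.95 and Fgf13 by 0.62. Igf2, described above, was higher, and so were 3 others: Igfbp2 rose 1.89-fold, Igfbp4 1.95-fold and Fgf1 1.74-fold. The lower calls of this list were lost without P0 sample 1, P5 sample 1 or P5 sample 3. Of 14 genes responsive to thyroid hormone or glucocorticoid, Thrsp, a lipogenic gene named for its response to thyroid hormone, rose 6.41-fold, from 183, 759 and 351 to 2628, 2079 and 2766 (SE 0.41 on the log2 scale, adjusted p = 0.00168). Dio2, the enzyme that activates thyroid hormone, rose 2.33-fold and Klf9, a target of both hormones, 1.74-fold, while Fkbp5, a glucocorticoid target, fell by 0.48 (adjusted p = 0.0458). Leaving out P5 sample 3 left 1 of the 3 rises called, and the call of Fkbp5 was lost without P0 sample 1, P0 sample 3 or any 1 of the P5 samples, and under the deposited scaling. Of 20 immediate early genes, Ier2, Ier5 and Btg2 rose 1.65-fold, 1.76-fold and 1.93-fold, and none of the 20 was called when P0 sample 3, P5 sample 2 or P5 sample 3 was left out.

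The single probe sets with the largest differences were named by size among those that were called, did not overlap and passed the brightness filter in the higher group, so their size and call are set by the choice. The largest rise was that of Mfap4, a protein of elastic microfibrils, from 34, 37.3 and 199 at P0 to 4996, 3685 and 3693 at P5, a 48.5-fold difference (log2 difference 5.60, SE 0.57, adjusted p = 5.74e-05). Next to Pcp2, Mobp, Mbp, Mog and Mag, described above, came Smpx, a small protein of striated muscle (log2 difference 4.53), Tmem125 (3.96) and Gjb1, the connexin 32 of myelinating cells (3.59). Tbata (3.52), Arhgef33 (3.25), Ppp1r14a, an inhibitor of myosin phosphatase (3.17), Insm1 (3.17), Sgo1, the shugoshin that protects centromeric cohesion (3.04), and Mndal (3.04) completed the 15. The P0 signals of Mfap4, Smpx, Tmem125, Gjb1 and Tbata were between 5.46 and 199, so their folds rest on a weak P0 level. All 15 rises had the same sign in the knockout samples and 13 were called there.

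The largest falls were smaller than the largest rises. Zfp697, a zinc finger gene, fell from 605, 813 and 761 to 18.9, 20.6 and 46.8 (log2 difference -4.09, SE 0.51, adjusted p = 0.000319), and its other probe set gave -0.74. After it came 4932438A13Rik (-2.67), Irgq (-2.42), Cpe (-2.32), Ucp1 (-2.20), Dcx (-2.02), Zbtb49 (-2.02), Pisd-ps3 (-1.97), R3hdm1 (-1.96), Vwce (-1.95), Fam171a2 (-1.93), Pex5l (-1.90), Enc1 (-1.84), Hmga2 (-1.80) and Ttc6 (-1.73). For some of these genes the other probe sets gave values near 0: the other set of Cpe, the carboxypeptidase of neuropeptide processing, gave -0.10, and those of R3hdm1 gave -0.28, -0.15 and -0.05. For others a further set was also called lower, as for Dcx (-1.63 and -0.94), Enc1 (-0.69 and -0.65), Hmga2 (-1.04) and Pisd-ps3, whose 4 other sets ran from -1.86 to -1.23. Enc1, an actin-binding protein of young neurons, was bright, at 3744, 2000 and 3676 against 734, 1070 and 749. Of the 15 falls, 14 had the same sign in the knockout samples and 1 was called there. Only 4 of the 15 kept the call in every alternative setting, and Vwce was called in 5 of 21.

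**Figure D5:**
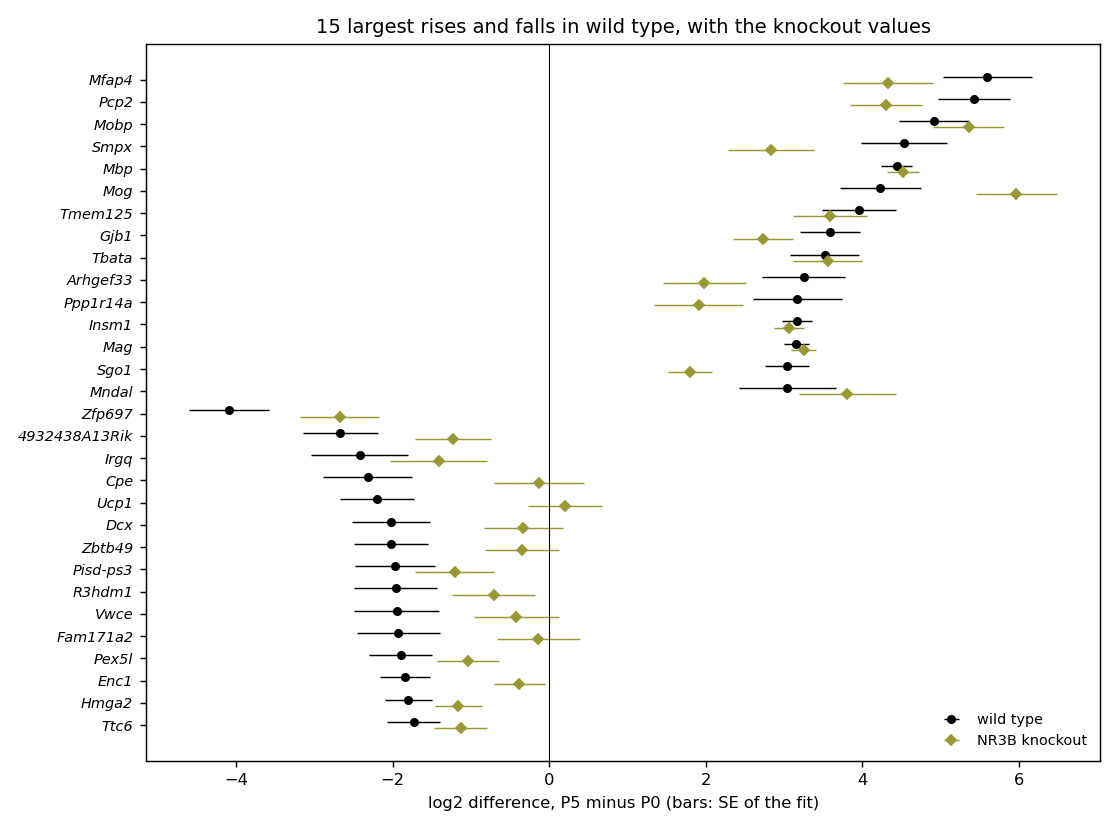
Log2 difference (P5 minus P0) of the 15 largest rises and 15 largest falls chosen in wild type, with bars of 1 SE from the fit, and the same probe sets in the NR3B knockout. The rises range from 3.04 to 5.60 and lie to the right in the knockout as well, while several of the falls, such as Cpe, Ucp1 and Fam171a2, lie near 0 in the knockout.

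The knockout samples gave the age comparison again, with separate samples at both ages, and 1577 probe sets were called there (3.5%). Of the genes described here, Mag differed by 3.25 on the log2 scale in the knockout against 3.16 in wild type, Mki67 by 2.15 against 2.15, Neurod1 by 2.52 against 3.02, and Hoxd10 by -1.74 against -1.65. Larger gaps were seen for Igf2 (0.55 against 1.49), Ptgds (0.16 against 1.20), Trem2 (0.15 against 2.08) and Dcx (-0.33 against -1.63 on its brightest set). A test of the difference between the genotypes in the age effect called 0 of 45037 probe sets, with 2243 at an unadjusted p below 0.05 and a lowest adjusted p of 0.838. No difference between the genotypes was therefore detectable in these samples for any gene named here, and an effect called in wild type alone is not shown to be particular to it.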

How the data were processed

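Signals were the values of the series' matrix table, 1 per probe set and array, deposited by the authors as linear intensities. No source used here names the software that made them, and each array's trimmed mean was 2500.01. Control probe sets (64 of 45101) were left out. Values were taken as log2(signal + 16), quantile normalized over the 12 arrays and fitted with limma 3.58.1 in R 4.3.3 (1 mean per group, eBayes with a trend, 8 residual degrees of freedom), with Benjamini-Hochberg adjustment over 45037 probe sets. An adjusted p below 0.05 is a call. Signals printed per sample are the deposited ones, and differences, SEs and folds come from the fit. An exact permutation test of 3 against 3 samples cannot go below 0.1 and was not used. Gene symbols came from the platform annotation: 34945 probe sets had 1 symbol, 932 several and 9160 none, and unnamed sets entered the test without a name.

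A gene was represented by its brightest probe set. Named were the 15 largest rises and falls among called probe sets that did not overlap and were above the 40th percentile of probe set means in the higher group, and, per list, its defining members, the 4 with the smallest p and the member nearest the median. The members and gene lists were chosen with earlier results of these data known. On simulated data for this comparison (45037 probe sets, 200 changed), 43% of 2-fold and 93% of 4-fold changes were called, with 5 false calls. The simulated noise was independent between probe sets and had the same SD in every group, and only sets that passed the brightness filter were changed. The wider scatter of the P0 samples and the departure of P0 sample 2 were not simulated. These rates therefore need not hold for the measured data. Alternatives were the scaling, pseudocount, brightness filter, wild-type samples alone, array weights, a constant prior, a replicate block and leaving out samples. The number of arrays limits the precision.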

Additional observations from a re-analysis of the deposited data

How the results depend on the processing

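No called difference reversed under any alternative. The 2615 called probe sets became 1448 (935 higher, 513 lower) with the wild-type samples fitted alone, 6882 (3688 higher, 3194 lower) with array weights, and 1161 (812 higher, 349 lower) with a constant prior. Leaving out 1 sample gave 1093 to 6991 in all, 723 to 3806 higher and 370 to 3185 lower, with the highest values without P0 wild-type sample 2 and the lowest without P5 wild-type sample 2. The test between genotypes called 0 probe sets in each leave-one-out, 2 with a constant prior and 1 without P0 wild-type samples 1 and 2. Deposited scaling, median centring and both other pseudocounts gave 2152 to 2655 calls. The brightness filter gave 3411 of 27022 probe sets, and 1 probe set per gene 2438 of 12600, counts over fewer probe sets, of which 2459 and 1457 were also called in the full table. Same-numbered wild-type samples of the 2 ages shared only a number (correlations of deviations -0.0496, 0.0805 and 0.075), those of the 2 genotypes at P0 correlated at 0.4088, 0.3149 and 0.0551, and a replicate block gave 3016 calls. The number of arrays limits what could be called, and 43% of simulated 2-fold changes were recovered, under noise simpler than that of the data.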
